A study of Mus musculus with 6 samples.

Results

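The genes described here are the 47 that build, load, start and feed the DNA replication machinery, among 24061 genes in a table of RNA sequencing counts. They were chosen by name from a fixed list of subunits and enzymes, and all 47 were matched by their current symbol. The rule holds no measured value, but the list was drawn up with earlier results of these data known. The cells were fibroblasts cultured from fibrotic mouse lungs, which the labels call resident. Every library carries the same genotype, TGF-alpha transgenic, so that no group without the transgene or without fibrosis is compared here. Libraries 1 to 3 came from cells transfected with control siRNA and libraries 4 to 6 from cells transfected with siRNA that targets Wt1, a zinc finger transcription factor named for Wilms tumor. Both duplexes are labelled stealth; an siRNA leads the cell to degrade transcripts that match it. The sources used here do not state the promoter that drives the transgene, the ages of the mice, the time from transfection to harvest or the number of animals or cultures behind the libraries. The p-values therefore measure only the spread between these libraries, which may be technical.

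Replication starts at origins that the origin recognition complex (ORC) marks in G1, where Cdc6 and Cdt1 load the MCM helicase, a ring of the subunits MCM2 to MCM7. At the start of S phase the kinase Cdc7 with its activator Dbf4, together with Mcm10, Cdc45 and the GINS complex, turns the ring into an active helicase. Primase and the polymerases then copy the opened strands. The sliding clamp PCNA tethers some of these polymerases to DNA, and ribonucleotide reductase supplies deoxynucleotides. Many of these genes are known targets of the E2F transcription factors. In a tissue fibroblast, which divides little unless it is stimulated, many but not all such transcripts mark cells that are entering or passing through S phase.

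Libraries held 26.1 to 32.1 (in units of 1e6) counts, so that 3 counts were worth 0.0926 to 0.113 counts per 1e6 counts of the library (CPM, scaled by TMM factors). Wt1, the targeted gene, stood at 48.8, 55.7 and 51.5 CPM in control libraries 1, 2 and 3 and at 11.4, 8.63 and 7.92 CPM in libraries 4, 5 and 6 (adjusted p = 5.98e-06, log2 fold change -2.48 ± 0.16). Adjusted p-values are those of the edgeR quasi-likelihood test with Benjamini-Hochberg adjustment over 14190 genes, and the value after ± beside a log2 fold change is its standard error. All 10 fibroblast markers passed the filter on low counts, 2 lower and 5 higher. The 2 lower were Pdgfra (mean 1181 against 523 CPM, log2 fold change -1.17 ± 0.13) and Col3a1 (7430 against 5391 CPM, -0.46 ± 0.11). The 5 higher were Col1a1 (7982 against 17421 CPM), Col1a2 (5793 against 9655 CPM), Dcn, Lum and Vim. The list summed to 21268 to 30497 CPM in control libraries, against 33024 to 40223 CPM in Wt1 siRNA libraries. This rise came mainly from Col1a1 and Col1a2 and does not describe every marker. Summed levels in controls and after Wt1 siRNA were 62.3 to 84.6 and 78.3 to 90.1 CPM for 10 epithelial markers, 109 to 133 and 90.4 to 112 CPM for 8 endothelial markers, and 40.9 to 51.2 and 34 to 38.8 CPM for 11 leukocyte markers. Of these, 7, 8 and 6 passed the filter. In each list 1 was lower (Krt18, Kdr and Cd14), and 1 epithelial marker was higher (Krt19, also a mesothelial marker). Scgb1a1 of club cells and Cd3e of T cells had 0 counts in all libraries, and Ptprc, the pan-leukocyte marker, was at 0.211 to 1.17 CPM. Sftpc of alveolar cells failed the filter, with 0 to 0.226 CPM in controls and 0 after Wt1 siRNA. Other markers of these lists were clearly present: Krt8, Cdh5 and Lyz2 had means of 19.9, 53.9 and 19.7 CPM in controls. After Wt1 siRNA their means were 19.6, 44.0 and 21.7 CPM. Of 6 mesothelial markers, Wt1 itself among them, 3 were lower and 2 higher, with sums of 226 to 279 CPM in controls and 144 to 187 CPM after Wt1 siRNA and no marker at 0.

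After Wt1 siRNA 18 of the 47 replication genes were lower at an adjusted p below 0.05 and 0 were higher. The called falls ran from 1.40-fold in Rpa1, the largest subunit of the single-strand binding protein, to 2.60-fold in Lig1, the DNA ligase of replication. Among all genes tested 10.3% were lower and 9.05% higher by the same rule, against 38.3% of the replication genes that were lower. In numbers 1459 genes were lower and 1284 higher, and with library size scaling in place of TMM 1829 and 855, of which 19 and 0 were replication genes. At an unadjusted p below 0.05, 26 replication genes were lower and 0 higher, beside 2343 and 2208 of all 14190 genes. DESeq2 and limma-voom called 20 and 16 replication genes lower, each with 0 higher. Over all genes DESeq2 called 1702 lower and 1575 higher, and limma-voom 1452 and 1371. All 47 passed the filter on low counts. The log2 fold change was negative in 43, which is 91.5%, beside 49.6% of all genes, and its median was -0.51 beside 0.0035. In 19 replication genes all Wt1 siRNA libraries lay below all controls, and in 0 above. Over all genes tested the groups were apart in this way, lower or higher, in 18.3% and 18.1%. Because the 47 were chosen with earlier results of these data known, these shares describe the list and are not independent support. In RNA from whole cultures, fewer cells in S phase and less RNA per cell cannot be told apart. Of the 6 mesothelial markers Lrrn4 (-2.10), Upk3b (-2.16) and Wt1, the siRNA target itself, fell in the same libraries, Msln (0.87) and Krt19 (1.12) rose, and Upk1b (-0.28) was not called; values are log2 fold changes. The part of these markers in the counts was not tested.

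The number called depended on single libraries: leaving out control library 3 gave 7, leaving out Wt1 siRNA library 4 also 7, and leaving out Wt1 siRNA library 5 gave 10. The count over all genes fell in these runs too, from 1459 lower to 1025, 785 and 1071. Only 6 of the 18 stayed below the threshold in every alternative run: Lig1, Rrm1, Dbf4, Mcm3, Mcm5 and Mcm10. Of the other 12, all lost the call when at least 1 library was left out, and Rfc4, Rrm2 and Tk1 also lost it with another test or fit. No replication gene was higher in any alternative.

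**Figure D1:**
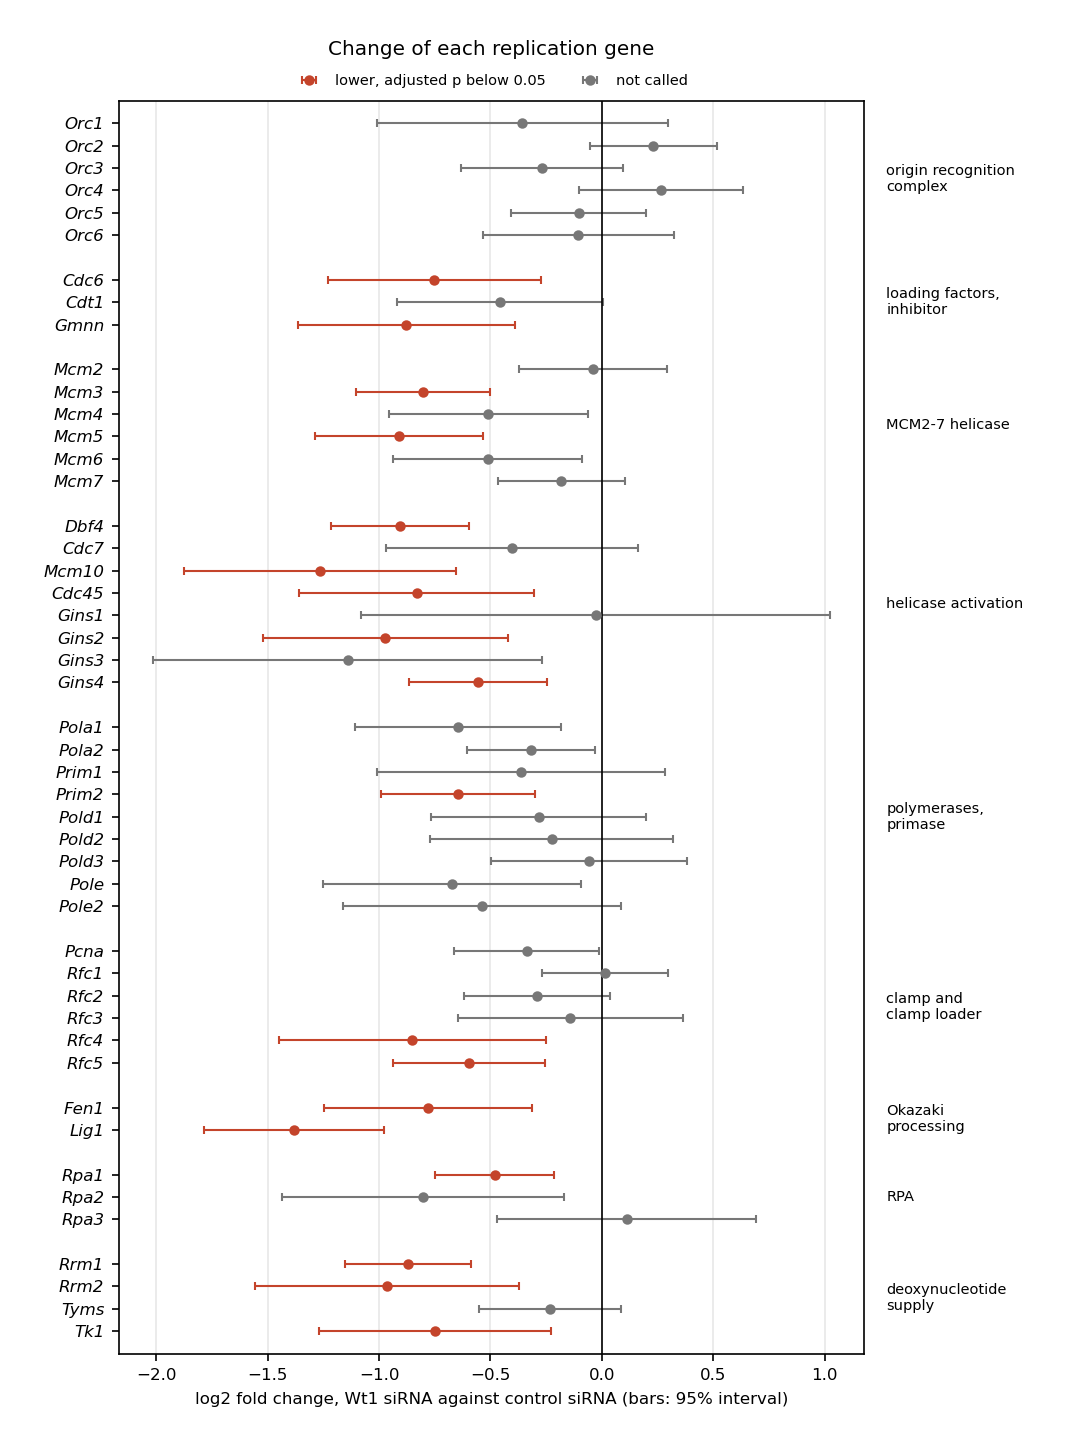
Log2 fold change of each of the 47 replication genes (x axis; Wt1 siRNA against control siRNA, 3 libraries each, edgeR) with its 95% interval as a bar, grouped by role. The 18 red points were lower at an adjusted p below 0.05 and the grey points did not pass; the origin recognition complex has 0 red points and helicase activation 5 of 8.

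Promoter windows of 4 of the lower genes are shown because they hold an E2F-type motif near a RefSeq transcription start. The motif was searched on both strands as TTTCCCGC, TTTCGCGC, TTTGCCGC or TTTGGCGC, in RefSeq windows of GRCm38.p6 that run from 250 bases before to 50 bases after a start. Windows were matched for 39 of the 47 genes, not for Gins1, Gins2, Gins4, Gmnn, Mcm4, Pole, Prim2 and Rfc2. The 4 are all the called genes with a match, given smallest p first. They are Lig1 (chr7:13278576-13278875, plus strand, 1 of 3 windows), Mcm3 (chr1:20820263-20820562, minus strand), Mcm5 (chr8:75109259-75109558, plus strand) and Cdc6 (chr11:98907901-98908200, plus strand). Each sequence runs 5′ to 3′ on the strand of the gene, and capitals mark the motif on either strand.
Lig1: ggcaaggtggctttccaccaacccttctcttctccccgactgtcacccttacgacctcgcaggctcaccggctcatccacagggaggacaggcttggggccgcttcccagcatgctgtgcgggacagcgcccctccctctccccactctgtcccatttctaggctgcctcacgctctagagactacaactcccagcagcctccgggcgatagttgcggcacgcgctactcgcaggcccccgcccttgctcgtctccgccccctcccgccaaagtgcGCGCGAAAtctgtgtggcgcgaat
Mcm3: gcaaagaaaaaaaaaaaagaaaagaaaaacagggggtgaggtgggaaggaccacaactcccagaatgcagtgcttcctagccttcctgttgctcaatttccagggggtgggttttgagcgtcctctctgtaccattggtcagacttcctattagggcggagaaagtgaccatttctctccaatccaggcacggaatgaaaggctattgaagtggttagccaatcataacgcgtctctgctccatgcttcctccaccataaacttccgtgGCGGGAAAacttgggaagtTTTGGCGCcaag
Mcm5: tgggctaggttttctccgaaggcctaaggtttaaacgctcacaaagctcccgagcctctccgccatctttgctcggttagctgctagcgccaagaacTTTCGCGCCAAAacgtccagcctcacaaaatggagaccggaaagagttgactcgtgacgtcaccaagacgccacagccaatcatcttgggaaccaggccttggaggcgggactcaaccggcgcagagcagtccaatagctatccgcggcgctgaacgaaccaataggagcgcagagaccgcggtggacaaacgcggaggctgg
Cdc6: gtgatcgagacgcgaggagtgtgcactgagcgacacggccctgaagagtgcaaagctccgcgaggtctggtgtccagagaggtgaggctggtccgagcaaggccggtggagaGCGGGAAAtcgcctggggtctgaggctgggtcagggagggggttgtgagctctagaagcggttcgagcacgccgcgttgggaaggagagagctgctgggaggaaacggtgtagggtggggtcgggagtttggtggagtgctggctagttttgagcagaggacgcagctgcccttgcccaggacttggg

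The match in Lig1 begins 27 bases into the transcribed part and the pair in Mcm3 at bases 20 and 39, counted from 1 at the start. In Mcm5 a pair that shares bases begins 153 and 149 bases before the start, and in Cdc6 a single match begins 138 bases before it. Starts here are those of the windows shown. The windows of Lig1 and Cdc6 begin at 13278576 and 98907901, inside the annotated genes, which begin at 13277175 and 98907709. The matches of Lig1 and Cdc6 therefore do not lie before the first annotated start of these genes. An E2F-type match was present in 15 of the 39 genes with a window (38.5%), beside 4.68% of 11080 tested genes with a window and 2.26% of all 32851 windows of this length. It was present in 4 of 14 called genes (28.6%) and 11 of 25 genes that were not called (44.0%), so that the genes that passed did not hold it more often. With a match the median log2 fold change was -0.51 and without one -0.38. Besides those shown, Orc1, Orc3, Cdt1, Mcm6, Mcm7, Gins3, Pola1, Pold1, Pold3, Pole2 and Rfc3 held a match.

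A CCAAT box, searched as CCAAT, was in 23 of the 39 genes (59.0%, beside 43.1% of tested genes), and the cell cycle homology region, searched as TTTGAA or TTCGAA, in 9 (23.1%, beside 16.6%). A zinc finger motif that WT1 and EGR proteins can bind, searched as GCGTGGGNG, was in 0 of the 39 and in 3.73% of tested genes. All searches covered both strands. Of 21 E2F-type matches in windows of replication genes 4 shared bases with another such match, 1 with a CCAAT box and 0 with the other motifs. A match is a description of letters and not of a bound factor, and its absence says only that these letters are not in the window.

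No gene of the origin recognition complex, which marks the sites where replication can begin, passed in either direction. Orc2, which had the highest mean of the 6, stood at 42.8, 40.3 and 45.3 CPM in controls and at 50.8, 57.2 and 42.7 CPM after Wt1 siRNA (log2 fold change 0.23 ± 0.13, 95% interval -0.05 to 0.52). Orc5 stood at 36.1, 34.6 and 37.2 CPM against 33.7, 38.9 and 27.9 CPM (-0.10 ± 0.14, interval -0.41 to 0.20). Both genes overlapped between groups, and these intervals hold no fall as large as that of Mcm3 or Mcm5. Orc1, the largest subunit, was the scarcest at 6.52 ± 2.03 CPM (SD, n = 3) in controls and 5.08 ± 1.49 CPM after Wt1 siRNA, and its interval of -1.01 to 0.30 was the widest of the complex. Log2 fold changes of Orc3, Orc4 and Orc6 were -0.27, 0.27 and -0.11. None of the 6 passed in any alternative. Exons of Orc2 share 1150 bases, 29.8% of its exonic length, with Nif3l1 on the opposite strand; Nif3l1 had a log2 fold change of 0.27 (adjusted p = 0.240).

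Of the factors that load the helicase, Cdc6 and the inhibitor Gmnn were lower, and Cdt1 did not pass. Cdc6, an ATPase that joins ORC to recruit the MCM ring, stood at 10.7, 9.96 and 14.7 CPM in controls and at 5.80, 7.0 and 8.17 CPM after Wt1 siRNA. It was 1.68-fold lower (-0.75 ± 0.22, adjusted p = 0.0318) and the groups did not overlap. Gmnn, geminin, which binds Cdt1 and blocks loading after S phase has begun, stood at 9.45, 16.1 and 15.2 CPM against 6.69, 8.08 and 7.39 CPM (1.84-fold lower, -0.88 ± 0.22, adjusted p = 0.0171). Here the groups were apart as well, with control library 1 nearest to the Wt1 siRNA libraries. Cdt1, the partner of Cdc6 in loading, stood at 14.3, 10.9 and 16.7 CPM against 7.96, 11 and 11.5 CPM (-0.46 ± 0.21, adjusted p = 0.159), and control library 2 lay inside the range of the Wt1 siRNA libraries. The ratio of Cdt1 to Gmnn counts within a library was 1.52, 0.677 and 1.10 in controls and 1.19, 1.36 and 1.56 after Wt1 siRNA. These ratios overlap; this and the later ratios between 2 genes were chosen after the values were seen and were not tested. Cdc6 did not pass without control library 1 or 3 or Wt1 siRNA library 4 or 5 (adjusted p = 0.0534, 0.139, 0.137 and 0.0769), nor Gmnn without control library 2 or 3 or Wt1 siRNA library 4 (0.0509, 0.0691 and 0.0843).

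Within the MCM ring Mcm3 and Mcm5 were lower and the other 4 subunits were not called; differences among subunits were not tested. Mcm3 (gene ID 17215, chromosome 1, 20802966 to 20820312 in GRCm38) stood at 34.8, 34.5 and 41.2 CPM in controls and at 18.5, 21.9 and 22.9 CPM after Wt1 siRNA, which is 1.75-fold lower (-0.80 ± 0.14, adjusted p = 0.00192). Mcm5 (gene ID 17218, chromosome 8, 75109468 to 75128439) stood at 28.5, 26 and 33.8 CPM against 15.9, 12.4 and 18.7 CPM, 1.88-fold lower (-0.91 ± 0.17, adjusted p = 0.00355). In both genes every Wt1 siRNA library was below every control by a wide margin. Mcm2, which also binds histones, stood at 24.7, 25.7 and 34.3 CPM against 28.9, 28.5 and 25 CPM (-0.04 ± 0.15, interval -0.37 to 0.29). Mcm7, the most abundant of the ring, stood at 37.2, 48.1 and 48.3 CPM against 37.8, 41.3 and 38.6 CPM (-0.18 ± 0.13, interval -0.47 to 0.11). Their groups overlapped, and control library 1 held the lowest Mcm7 of all 6 libraries. Mcm4 (-0.51 ± 0.21, adjusted p = 0.108) and Mcm6 (-0.51 ± 0.20, adjusted p = 0.0876) had 95% intervals of -0.96 to -0.06 and -0.94 to -0.09, which hold the estimates of Mcm3 and Mcm5. Mcm4 passed without control library 2 (adjusted p = 0.0222) and Mcm6 without Wt1 siRNA library 6 (0.0125).

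The ratio of Mcm2 to Mcm5 counts within a library was 0.865, 0.989 and 1.02 in controls and 1.82, 2.30 and 1.33 after Wt1 siRNA. All ratios after Wt1 siRNA were above all controls; with 3 libraries against 3 an exact permutation test cannot go below p = 0.1. Per kilobase of transcript, the scale on which genes can be compared, Mcm6 was the lowest of the ring in all 6 libraries and Mcm7 the highest. Means in controls were 8.38 CPM per kilobase for Mcm2, 12.1 for Mcm3, 11.1 for Mcm4, 8.71 for Mcm5, 5.47 for Mcm6 and 15 for Mcm7. The level of Mcm7 was 2.22 to 3.49 times that of Mcm6 in controls and 2.58 to 4.35 times after Wt1 siRNA, ranges that overlap. The exons of Mcm7 share 321 bases with Ap4m1 and 64 with Cops6 on the opposite strand, whose log2 fold changes were -0.03 and -0.12 and did not pass. Rows for Mir25, Mir93 and Mir106b, the miRNA genes inside Mcm7, held 5, 0 and 8 counts over all libraries.

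**Figure D2:**
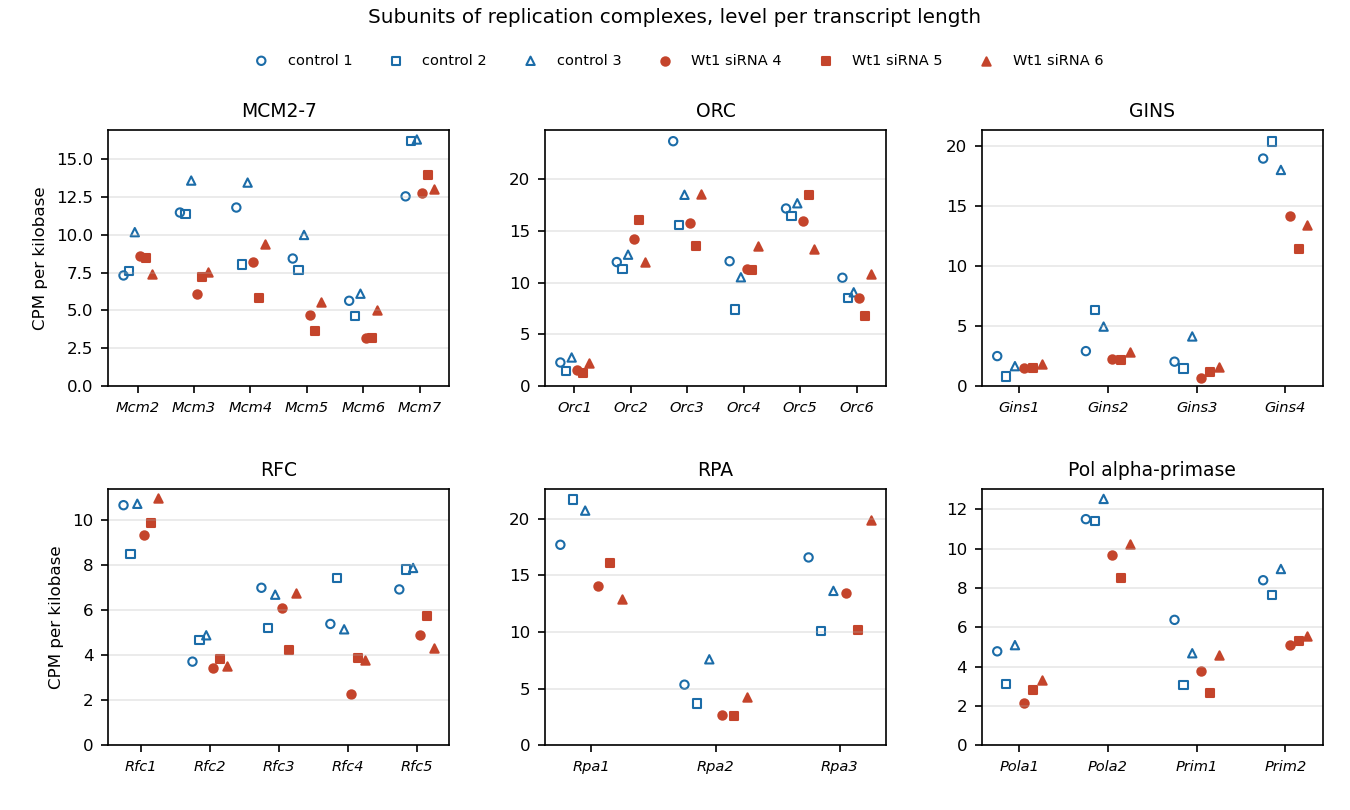
Level in CPM per kilobase of transcript (y axis, from 0) of each subunit of MCM2-7, ORC, GINS, the clamp loader RFC, RPA and polymerase alpha with primase, 1 point per library (open blue, control siRNA; filled red, Wt1 siRNA). Mcm3 and Mcm5 have all red points below all blue points, while those of Mcm2 and of each ORC subunit overlap.

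Of the 8 genes of helicase activation 5 were lower and 0 higher, with a median log2 fold change of -0.87. Dbf4, the regulatory subunit that activates the Cdc7 kinase (gene ID 27214, chromosome 5, 8396969 to 8422725), stood at 45.6, 47.1 and 50.5 CPM in controls and at 28.7, 27.1 and 20.7 CPM after Wt1 siRNA. It was 1.87-fold lower (-0.91 ± 0.14, adjusted p = 0.00111), with no overlap. Cdc7 itself stood at 4.54, 7.11 and 7.33 CPM against 5.10, 5.15 and 4.10 CPM (-0.40 ± 0.26, adjusted p = 0.319), with control library 1 among the Wt1 siRNA libraries. The ratio of Dbf4 to Cdc7 counts was 6.63 to 10.04 in controls and 5.05 to 5.63 after Wt1 siRNA. Mcm10, which is needed to start unwinding (gene ID 70024, chromosome 2, 4990724 to 5012791), stood at 5.59, 6.90 and 7.78 CPM against 2.19, 3.66 and 2.57 CPM. With 2.40-fold (-1.27 ± 0.28, adjusted p = 0.00823), its called fall was second in size to that of Lig1. Mcm10 was also the scarcest of the 47 per kilobase, at 1.39 CPM per kilobase in controls and 0.577 after Wt1 siRNA.

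Cdc45, the helicase cofactor that binds the MCM ring together with GINS, stood at 9.54, 8.62 and 13.9 CPM in controls against 5.50, 5.07 and 7.39 CPM (1.78-fold lower, -0.83 ± 0.24, adjusted p = 0.0317). GINS is a complex of 4 small proteins; Gins2 and Gins4 were lower and the other 2 did not pass. Gins2 stood at 11.4, 24.8 and 19.3 CPM against 8.67, 8.63 and 11 CPM (1.96-fold lower, -0.97 ± 0.25, adjusted p = 0.0188). Control library 1 was close to the Wt1 siRNA libraries, and the controls spread over more than the difference between groups. Gins4, by far the most abundant of the complex per kilobase, stood at 25.6, 27.5 and 24.3 CPM against 19.1, 15.4 and 18.1 CPM (1.47-fold lower, -0.56 ± 0.14, adjusted p = 0.0170). Gins3 had a larger estimate, 2.21-fold, but control library 3 at 10.4 CPM stood far above the other controls at 5.12 and 3.70 CPM, and it did not pass (-1.14 ± 0.40, adjusted p = 0.0667). DESeq2 (0.0295), omitting the filter (0.0264) and leaving out control library 2 (0.0245) brought it below the threshold. Gins1 was the scarcest member in CPM, at 2.72, 0.880 and 1.8 CPM against 1.67, 1.63 and 2.0 CPM. Its controls spread widely, and its interval of -1.08 to 1.02 did not exclude a change of about 2-fold either way.

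Cdc45 did not pass without control library 1 or 3 or Wt1 siRNA library 4 or 5 (adjusted p = 0.0529, 0.145, 0.121 and 0.103). Gins2 did not without control library 2 or 3 or Wt1 siRNA library 4 or 5 (0.0639, 0.0647, 0.0883 and 0.0576), nor Gins4 without Wt1 siRNA library 5 (0.0717). In the annotation 2758 exonic bases of Gins2, 67.3% of its exonic length, overlap Gse1 on the opposite strand. Gse1 stood at 16.2 ± 0.856 and 13.7 ± 2.96 CPM (SD, n = 3) and did not pass (-0.25 ± 0.18); no source used here states whether counting used strand, so reads of Gins2 and Gse1 cannot be told apart.

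**Figure D3:**
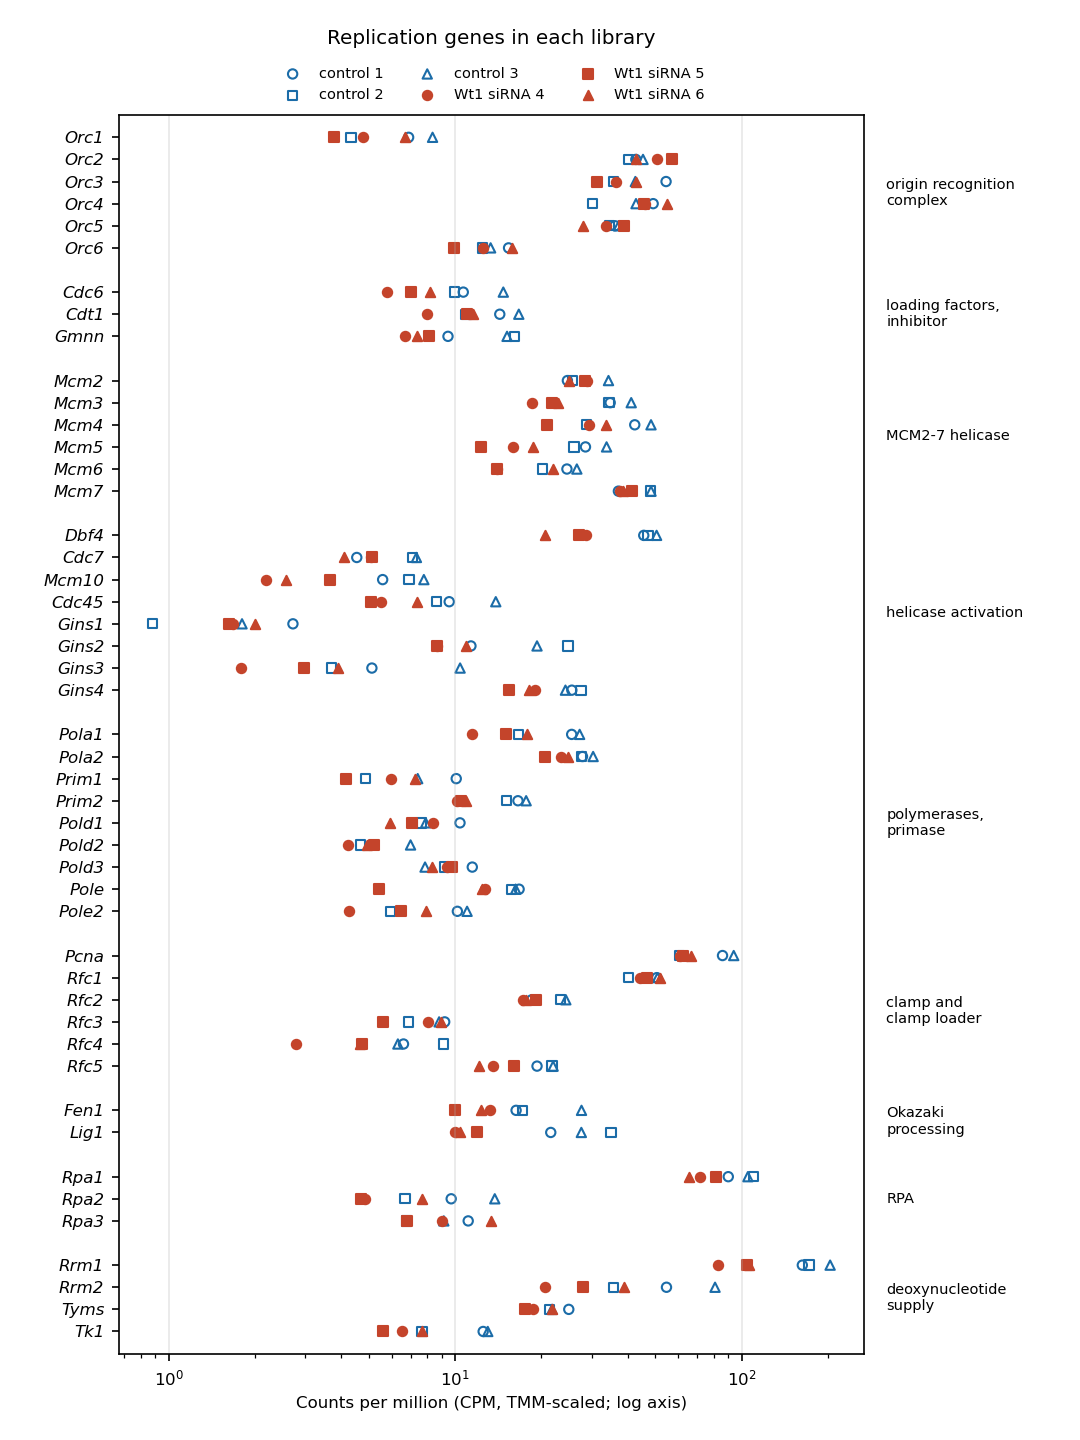
CPM of each replication gene in each of the 6 libraries (x axis, log scale; open blue, control siRNA libraries 1 to 3; filled red, Wt1 siRNA libraries 4 to 6), grouped by role. Red points lie to the left of all blue points in 19 genes, among them Lig1, Rrm1 and Dbf4, and mix with them in Mcm2, Rfc1 and all ORC genes.

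Of 9 genes for the polymerases and primase 1 passed, Prim2, although all 9 log2 fold changes were negative. Prim2, the large subunit of primase, stood at 16.6, 15.1 and 17.7 CPM in controls and at 10.1, 10.5 and 11 CPM after Wt1 siRNA (1.56-fold lower, -0.65 ± 0.16, adjusted p = 0.0144). Its catalytic partner Prim1 was less abundant and did not pass (7.45 ± 2.62 and 5.79 ± 1.54 CPM, SD, n = 3). Pola1, the catalytic subunit of polymerase alpha, had the same estimate as Prim2 but a wider spread, 25.5, 16.6 and 27.2 CPM against 11.4, 15 and 17.9 CPM (-0.65 ± 0.21, adjusted p = 0.0523). Pola1 lay just above the threshold: it passed with DESeq2 (0.0260), library size scaling (0.0384), no filter (0.0251), the stricter filter (0.0486), without control library 2 (0.0107) or without Wt1 siRNA library 6 (0.0323). Pola2, the B subunit and most abundant of the 9 in CPM, stood at 27.8, 27.6 and 30.3 CPM against 23.4, 20.6 and 24.8 CPM (-0.32 ± 0.13, adjusted p = 0.114); its groups did not overlap. Pole, the catalytic subunit of leading-strand polymerase epsilon, was also apart, at 16.7, 15.7 and 16.3 CPM against 12.7, 5.44 and 12.4 CPM (-0.67 ± 0.27, adjusted p = 0.0996). There Wt1 siRNA library 5 lay far below the other 2, and without it the estimate was -0.37.

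The genes of polymerase delta had the estimates nearest 0 of the 9, with log2 fold changes of -0.28, -0.23 and -0.06 for Pold1, Pold2 and Pold3. Pold3, an accessory subunit, stood at 11.5, 9.19 and 7.86 CPM against 9.37, 9.75 and 8.32 CPM, with a 95% interval of -0.50 to 0.38. Pole2, a subunit of polymerase epsilon, had -0.54 ± 0.29 (adjusted p = 0.223). Prim2 did not pass without control library 3 (adjusted p = 0.0539) or Wt1 siRNA library 4 (0.0719).

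PCNA, the clamp that tethers polymerases to DNA, did not pass, and of its loader Rfc4 and Rfc5 did. Pcna stood at 85.8, 60.8 and 93.9 CPM in controls and at 61.1, 62.4 and 66.7 CPM after Wt1 siRNA (-0.34 ± 0.15, adjusted p = 0.139). Libraries 4 to 6 were close together, and control library 2 lay just below them while the other 2 controls lay well above; without control library 2 the adjusted p was 0.00891 and the log2 fold change -0.50. Per kilobase Pcna was the highest of the 47, at 52.8 CPM per kilobase in controls and 41.8 after Wt1 siRNA. Rfc5 stood at 19.3, 21.8 and 22 CPM against 13.6, 16 and 12.1 CPM (1.51-fold lower, -0.60 ± 0.16, adjusted p = 0.0204). Rfc4 stood at 6.61, 9.12 and 6.31 CPM against 2.79, 4.75 and 4.66 CPM (1.8-fold lower, -0.85 ± 0.27, adjusted p = 0.0488). Both small subunits were apart between groups. Rfc1, the large subunit of the loader, stood at 50.6, 40.3 and 50.9 CPM against 44.3, 46.9 and 52.0 CPM, and its estimate of 0.01 ± 0.13 turned to -0.07 with library size scaling. Rfc2 and Rfc3 had -0.29 and -0.14 and did not pass. The estimates of the 5 subunits thus ran from 0.01 to -0.85, and differences among them were not tested.

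The call of Rfc4 was the weakest of the 18: it failed with each of the 6 libraries left out (adjusted p = 0.0616 to 0.179) and with limma-voom (0.0517). Rfc5 did not pass without control library 3 or Wt1 siRNA library 4 or 6 (adjusted p = 0.0670, 0.0896 and 0.0688). Exons of Rfc4 share 194 bases with Eif4a2, and those of Rfc5 499 bases with Wsb2, each on the opposite strand. Both neighbours were higher after Wt1 siRNA, Eif4a2 by 0.31 ± 0.09 (adjusted p = 0.0346) and Wsb2 by 0.33 ± 0.10 (adjusted p = 0.0341).

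Both genes of Okazaki fragment processing were lower. Lig1, which seals the nicks between fragments (gene ID 16881, chromosome 7, 13277175 to 13311426), stood at 21.6, 35.1 and 27.6 CPM in controls and at 9.97, 11.9 and 10.4 CPM after Wt1 siRNA. It had the largest called fall of the 47, 2.60-fold (-1.38 ± 0.19, adjusted p = 4.52e-04), and 38.4% of its mean level was left. The Wt1 siRNA libraries lay within 2 CPM of each other, while the controls spread from 21.6 to 35.1 CPM. Fen1, the nuclease that trims the flaps before ligation, stood at 16.3, 17.2 and 27.6 CPM against 13.2, 10.004 and 12.3 CPM (1.72-fold lower, -0.78 ± 0.21, adjusted p = 0.0245). Its groups were apart but near each other except for control library 3, and it did not pass without that library (adjusted p = 0.112), Wt1 siRNA library 4 (0.0605) or Wt1 siRNA library 5 (0.0856). The predicted gene Gm10143 covers 1909 of the 2422 exonic bases of Fen1 on the opposite strand. It had no row under that name among the counts, so that reads of the pair cannot be told apart.

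RPA, which coats single-stranded DNA at the fork, had 1 called subunit of 3. Rpa1 stood at 89.9, 110 and 105 CPM in controls and at 71.5, 81.7 and 65.5 CPM after Wt1 siRNA (1.40-fold lower, -0.48 ± 0.12, adjusted p = 0.0171). Rpa2 had the larger estimate and the larger spread, 9.69, 6.69 and 13.8 CPM against 4.83, 4.71 and 7.67 CPM (-0.80 ± 0.29, adjusted p = 0.0727). Control library 2 lay below Wt1 siRNA library 6 in Rpa2, whose adjusted p was 0.0222 without the former, 0.0342 without the latter, 0.0426 with DESeq2 and 0.0403 without the filter. Rpa3, the smallest subunit, stood at 11.1, 6.76 and 9.13 CPM against 9.04, 6.81 and 13.3 CPM (0.11 ± 0.27), and its sign changed without control library 2 or Wt1 siRNA library 6. Rpa1 did not pass without control library 3 or Wt1 siRNA library 4 or 6 (adjusted p = 0.0611, 0.0898 and 0.0616).

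Of the enzymes that supply deoxynucleotides Rrm1, Rrm2 and Tk1 were lower and Tyms was not called. Rrm1, the large subunit of ribonucleotide reductase (gene ID 20133, chromosome 7, 102441695 to 102469771), was the most abundant replication gene in CPM, at 163, 172 and 204 CPM in controls and 83.1, 105 and 106 CPM after Wt1 siRNA. It was 1.83-fold lower (-0.87 ± 0.13, adjusted p = 8.47e-04), and the gap between groups was larger than the spread within either. Rrm2, the small subunit made in S phase, stood at 54.7, 35.7 and 80.8 CPM against 20.6, 28.1 and 38.9 CPM (1.95-fold lower, -0.96 ± 0.27, adjusted p = 0.0273). It was the only called gene of the 47 whose groups overlapped, with control library 2 below Wt1 siRNA library 6. The ratio of Rrm2 to Rrm1 counts was 0.336, 0.208 and 0.397 in controls and 0.248, 0.268 and 0.366 after Wt1 siRNA, and the groups overlapped.

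Tk1, the thymidine kinase of the salvage pathway, stood at 12.5, 7.67 and 13.0 CPM against 6.51, 5.58 and 7.64 CPM (1.68-fold lower, -0.75 ± 0.24, adjusted p = 0.0464), with control library 2 just above Wt1 siRNA library 6. Tyms, thymidylate synthase, stood at 24.9, 21.4 and 21.8 CPM against 18.6, 17.5 and 21.8 CPM (-0.23 ± 0.15, interval -0.55 to 0.08). The pseudogene Tyms-ps has a row of its own, so that reads of Tyms could be shared with it. Rrm2 did not pass with DESeq2 (adjusted p = 0.0835) or the robust fit (0.0667), nor without control library 1 or 3 or Wt1 siRNA library 4 or 5 (0.0614, 0.143, 0.130 and 0.0713). Tk1 did not pass with limma-voom (0.0660), nor without the same 4 libraries (0.147, 0.164, 0.136 and 0.140).

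The libraries of a group were not alike in these genes. Control library 3 held the highest value of the 6 libraries in 27 of the 47 genes, and Wt1 siRNA libraries 4 and 5 the lowest in 15 and 17. The 47 genes together summed to 1269, 1187 and 1446 CPM in controls and to 896, 932 and 995 CPM after Wt1 siRNA. They took 0.119% to 0.147% of the counts of a control library and 0.0875% to 0.0991% after Wt1 siRNA, so that the groups were apart in the sum. Relative to each gene's mean over the 6 libraries, the median deviation on the log2 scale was 0.29, 0.0020 and 0.43 in controls and -0.23, -0.33 and -0.11 after Wt1 siRNA. Control library 2 was thus the control nearest to the Wt1 siRNA libraries and library 6 the nearest of those to the controls. Without control library 2, 20 replication genes were lower, 15 of them among the 18, and Gins3, Mcm4, Pcna, Pola1 and Rpa2 were added. Over all genes 1406 were lower in that run. Exons of 14 of the 47 genes overlap a gene on the opposite strand in the annotation.

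Other genes of replication were listed apart from the 47, in 7 lists of 94 genes grouped by known role; like the 47, they were drawn up with earlier results of these data known. Of the 94, 20 were lower (21.3%), 4 higher and 70 not called, beside 10.3% lower and 9.05% higher of all genes tested. Log2 fold changes of the 94 had a median of -0.24. Their lower count was 10, 9 and 13 when library 3, 4 or 5 was left out, beside 1025, 785 and 1071 over all genes. Fork chromatin assembly and maintenance methylation had 6 of 12 lower and 1 higher (median -0.56); Uhrf1, which brings the methyltransferase to new DNA, fell from 24.9 to 11.1 CPM and Nasp, a histone chaperone, from 50.3 to 27.4 CPM (-1.16 ± 0.18 and -0.87 ± 0.14; adjusted p = 9.28e-04 and 0.00120). Other origin firing and fork factors had 6 of 24 lower and 1 higher (median -0.21), with Atad5, which unloads PCNA (-1.07 ± 0.22), and Chtf18, of an alternative clamp loader (-1.35 ± 0.29). Checkpoint and fork protection genes had 2 of 16 lower (12.5%, near the share of all genes) and 1 higher (median -0.15). Clspn, claspin, fell from 16 to 5.49 CPM (-1.54 ± 0.18) and Tipin by 0.97 ± 0.22 on the log2 scale. These lists thus held called falls as large as those of Lig1 and Mcm10 beside many genes that did not pass.

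A list on the degradation of licensing factors and its control had 3 of 10 genes lower and 0 higher. The 2 with the smallest p were Fbxo5, an inhibitor of the anaphase-promoting complex and so of degradation (-1.17 ± 0.26), and Cks1b, a cofactor of the SCF-Skp2 ubiquitin ligase (-0.54 ± 0.14). Of 12 other deoxynucleotide enzymes 1 was lower, Dck, deoxycytidine kinase (-0.57 ± 0.18), and 0 higher. That is 8.33% lower, beside 10.3% of all genes. At an unadjusted p below 0.05, 4 of the 12 were lower and 3 higher, beside 2343 and 2208 of all 14190 genes. The list median was -0.25. Translesion and damage tolerance genes had 2 of 10 lower, Usp1 (-0.88 ± 0.13) and Rad18 (-0.89 ± 0.22), and 0 higher. For mitochondrial DNA replication 0 of 10 were lower, 1 of them at an unadjusted p below 0.05, and 1 was higher, Polg, the mitochondrial polymerase (0.37 ± 0.12, adjusted p = 0.0407), with a list median of -0.01. The 4 higher genes of the 7 lists were Polg, Hus1 (0.61 ± 0.16), Asf1a (0.52 ± 0.15) and Chtf8 (0.32 ± 0.10), named after their values were seen. That count was 0 with library size scaling and without Wt1 siRNA library 4 or 6, and 1 when library 1, 2 or 5 was left out.

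**Figure D4:**
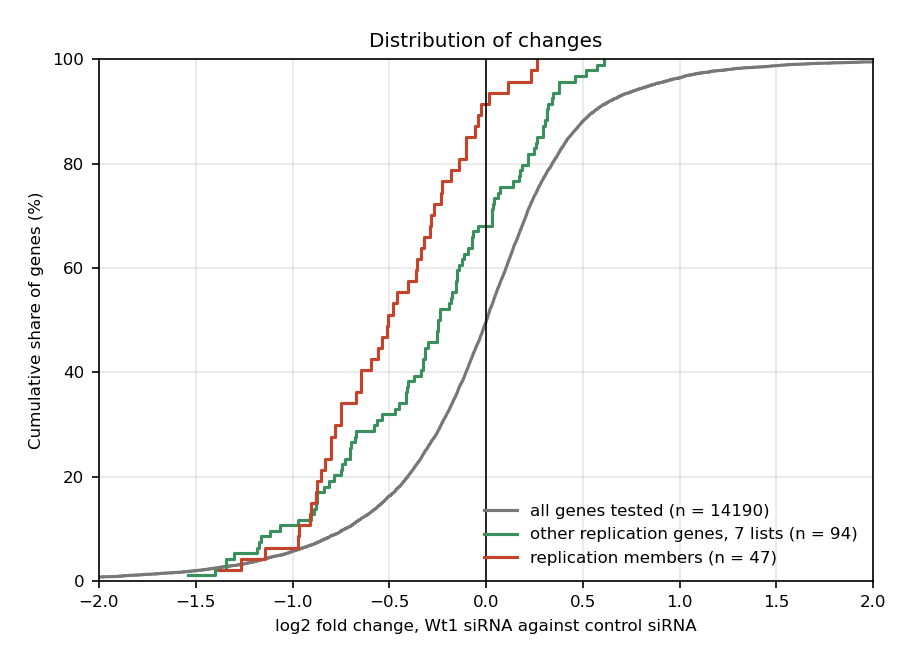
Cumulative share of genes (y axis, percent) at or below each log2 fold change of Wt1 siRNA against control siRNA (x axis, shown from -2 to 2) for the 47 replication genes, the 94 other replication genes and all 14190 genes tested. At 0 the curve of the 47 genes stands at 91.5%, beside 68.1% for the other replication genes and 49.6% for all genes.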

How the data were processed

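The authors deposited 1 table of raw read counts per Entrez gene ID, without normalization, with 1 column per library (per the file headers). Tools named by the submitters' processing notes, with no role or order, are TopHat, bcl2fastq, DESeq and CASAVA 1.8, and the builds GRCm38 and mm10. The sources used here do not state the counting tool, annotation or strand setting. Per the labels' protocols, libraries for Illumina sequencing were made from total RNA. IDs were named from RefSeq (23976 IDs) and GENCODE (7), and 78 were left unnamed. Replicate pairs differed beyond sampling noise (chi-square per degree of freedom 18.9 to 70.9).

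Counts were tested across all genes with edgeR 4.0.16 in R 4.3.3 (quasi-likelihood F test, TMM factors 0.940 to 1.07, filterByExpr, siRNA group alone, Benjamini-Hochberg threshold 0.05). The 47 genes had 25 to 5422 counts in a library. Levels per kilobase use the longest GENCODE M21 transcript paired with a RefSeq mRNA. Alternatives were DESeq2 1.42.0, limma-voom (limma 3.58.1), robust shrinkage, other scalings, filters and thresholds, and leaving out each library. The procedure was tested on simulated data, where it called 68.0% of true 2-fold changes and 30.4% of true 1.5-fold changes. Genes and lists were chosen with earlier results of these data known. Full values are given for called genes and, by role, for the most abundant gene and the one with the log2 fold change nearest 0; of the other lists the 2 called genes with the smallest p are named. Values of Cdc7, Gins3, Pola1, Pole and Rpa2 were added after they were seen.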

Additional observations from a re-analysis of the deposited data

How the results depend on the processing

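No paired analysis was possible because the libraries of the groups share no numbers. The number of replication genes lower, 18, was 16 to 21 under the 7 other tests, fits, scalings and filters and 23 at a threshold of 0.10. Over all genes the lower count was 1452 to 1829 under those 7 and 1963 at 0.10. With a library left out 7 to 20 replication genes were lower, and 0 were higher throughout. Their median log2 fold change was -0.59 to -0.37. For the other replication genes, with a library left out, 9 to 23 were lower and 0 to 4 higher; with library size scaling 0 were higher. Over all genes, with a library left out, 785 to 1406 were lower and 578 to 1253 higher, and library size scaling gave 855 higher. That scaling moved the median of all genes to -0.08.

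Signs turned only in replication genes that were not called: with limma-voom Gins1 was at 0.090, and with library size scaling Rfc1 at -0.073. With a library left out, values ran from -0.22 to 0.015 for Orc5, -0.29 to 0.048 for Orc6, -0.12 to 0.13 for Mcm2, -0.35 to 0.41 for Gins1, -0.18 to 0.10 for Pold3, -0.087 to 0.070 for Rfc1, -0.28 to 0.034 for Rfc3 and -0.18 to 0.31 for Rpa3. The cause was not tested, beyond the fewer libraries in each such fit. Gins1, with the fewest counts of the 47 genes, had the widest interval.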
